A study of Rattus norvegicus with 12 samples.

Results

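These results describe 100 features of the rat motor cortex transcriptome whose level was higher in each of 6 lesioned rats than in any of 6 unlesioned rats. They were chosen by their measured values. On the log2(CPM + 0.5) scale, where CPM is the read count scaled to a common library total, the gap of a feature is its lowest value among the lesioned rats minus its highest among the unlesioned rats. Of 16534 features in the deposited table, 14985 averaged at least 0.5 CPM over 12 libraries and were tested. In 372 of these the gap was above 0, which is 2.48% of the features tested, and the 100 with the largest gaps are the members described here. The opposite arrangement, every lesioned rat below every unlesioned rat, held for 1031 features (6.88%). Which direction held more features depended on scaling: with TMM factors, which rescale libraries by the bulk of their features, 920 features were higher and 547 lower in every lesioned rat.

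The lesion is 6-hydroxydopamine (6-OHDA), a toxin that enters catecholamine neurons through their uptake transporters and is used to model Parkinson's disease (PD) in rats. Its usual target is the midbrain dopamine projection to the striatum. The motor cortex, the tissue sampled here, receives a sparser dopamine input and is coupled to the striatum and thalamus in the loops that control movement. High-frequency stimulation of the motor cortex has been studied as a less invasive relative of deep brain stimulation.

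The 4 groups, of 3 rats each, were untreated control rats, control rats given cortical stimulation, rats of the 6-OHDA model (PD) and rats of the 6-OHDA model given cortical stimulation. "Lesioned" below means the PD and stimulated PD rats together, and "unlesioned" both control groups. Stimulation came from a graphene array over the primary motor cortex at 130 Hz, in sessions of 1 hour a day for 2 weeks. For stimulated controls no separate schedule was given, and sham procedures, hemisphere, strain, sex and age were likewise not stated. Only 3 groups are named in the design text, although 4 are labelled.

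No member is named by gene. The deposited table lists Ensembl identifiers, and 0 of 16534 were paired with a symbol in the reference tables, so function, genome position, promoter sequence and cell type markers were not used here, and the labelled tissue was not checked against its markers. Mitochondrially encoded genes, which were to be left out, were for the same reason not separated from the rest. The 100 members may therefore include such genes, in places meant for the next features. As a stand-in by abundance only, the 6 members that averaged at least 1000 CPM are described apart. Totals are given with and without them. Members are numbered 1 to 100 by falling gap, and only the identifiers of members 1 and 2 are printed.

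Libraries held 42905441 to 62082830 counted reads, so counting error was small for most members. In the lesioned rat that set the lower edge of the gap, the median member had 2644 reads, and 6 members had fewer than 100. The counting error at the edges of a gap had a median of 0.041 (1 SE of the log2 ratio of the reads in both libraries). It leaves out the constant added to CPM, which shrinks differences between low values. For scarce members it is therefore larger than the error on the scale of the gap. For 17 members the gap was under 2 such errors, and for 44 it was at least 5. The first count may thus be too high and the second too low. The libraries also differed in composition. TMM factors were 0.895 to 1.03 in lesioned and 1.02 to 1.10 in unlesioned rats, and the median feature differed by -0.12 (log2, lesioned minus unlesioned) as deposited. With TMM factors the members' median PD minus control difference was 0.61 (log2), against 0.46 as deposited. For stimulated PD minus stimulated control the medians were 0.63 and 0.52. The part of composition in the members' differences was not tested.

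Member 1, ENSRNOG00000012067, stood far from all other members. Its level was 0.466, 0.611 and 0.341 CPM in control rats 1 to 3 and 0.408, 0.688 and 1.24 CPM in stimulated control rats 1 to 3. PD rats had 23.3, 19.7 and 6.93 CPM, and stimulated PD rats had 14.6, 27.6 and 44.0 CPM. The lowest lesioned rat, PD rat 3, was thus several times above the highest unlesioned rat, stimulated control rat 3. Group means were 0.473 ± 0.135 CPM in control, 0.778 ± 0.421 in stimulated control, 16.7 ± 8.62 in PD and 28.7 ± 14.7 in stimulated PD rats (SD, n = 3). The mean over lesioned rats was 36.3-fold that over unlesioned rats, and the gap of 2.10 (log2) compared with 0.78 for member 2.

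Member 2, ENSRNOG00000066451, was scarce in every rat. Control rats had 0.233, 0.215 and 0.341 CPM and stimulated control rats 0.178, 0.206 and 0.247 CPM, against 1.36, 2.48 and 2.34 CPM in PD and 1.74, 0.946 and 1.08 CPM in stimulated PD rats. Its edge was set by stimulated PD rat 2, where it had 50 reads, and the counting error of the log2 read ratio was 0.40. Its levels are close to the constant added to CPM, so this value overstates the error on the scale of its gap. The ratio of lesioned to unlesioned means was 6.99. Every unlesioned rat had member 2 below the 0.5 CPM filter, so only its lesioned rats brought it into the test. That filter partly fixes its large ratio.

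Member 3 was also scarce, with 0.522 to 0.847 CPM as the means of the unlesioned groups and 2.16 ± 0.495 and 2.17 ± 0.174 CPM in PD and stimulated PD rats (SD, n = 3). Members 4 to 6 were well counted and differed less. Member 4 measured 22.0 ± 1.16 CPM in control, 21.0 ± 1.70 in stimulated control, 37.5 ± 4.42 in PD and 37.4 ± 1.84 in stimulated PD rats (SD, n = 3), a 1.74-fold ratio with narrow groups. Member 5 measured 87.0 ± 5.90 CPM in control, 68.9 ± 20.9 in stimulated control, 170 ± 52.6 in PD and 140 ± 3.49 in stimulated PD rats (SD, n = 3), and PD rat 2 was its highest library. Member 6 lay between 15.1 and 17.9 CPM in unlesioned rats and between 23.3 and 46.7 CPM in lesioned rats, with PD rat 1 the highest and PD rat 3 the lowest of the latter.

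**Figure D1:**
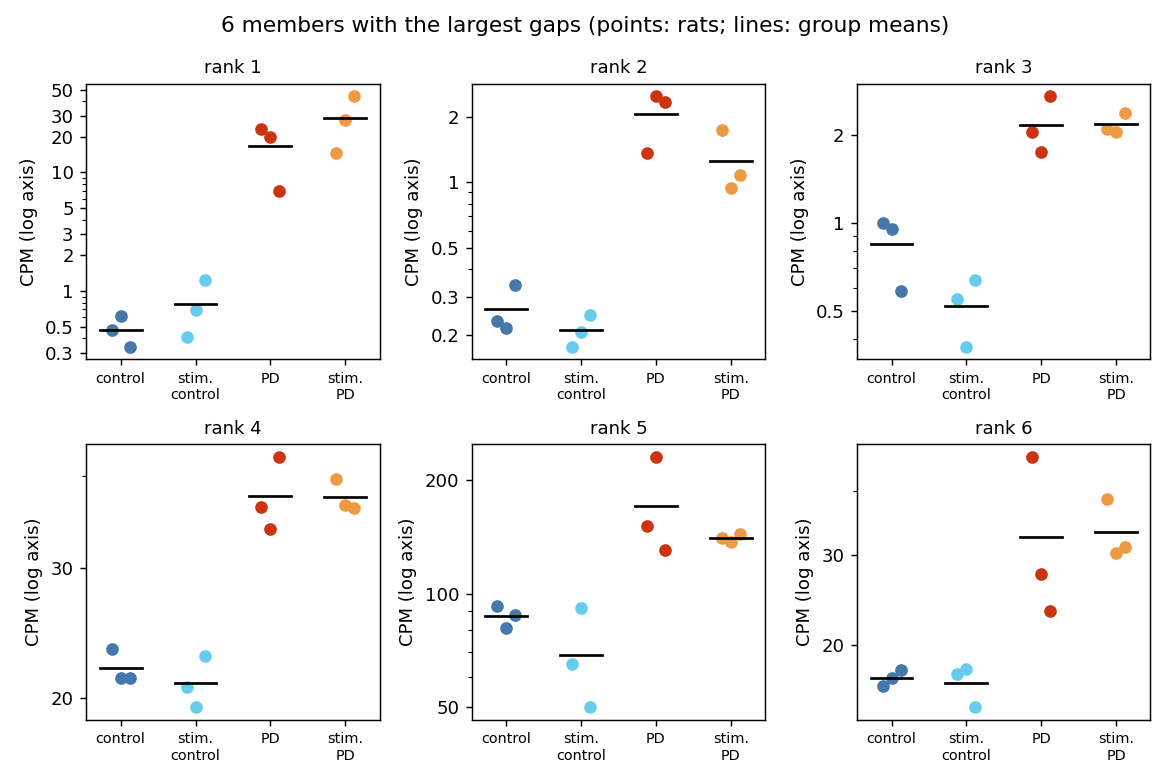
Level in CPM (log axis, a separate scale in each panel) of the 6 members with the largest gaps, by group. Points are the 3 rats of a group and lines are group means; in member 1 the lowest lesioned rat had 6.93 CPM and the highest unlesioned rat 1.24 CPM.

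Most members differed by less than a factor of 2. The ratio of lesioned to unlesioned mean CPM had a median of 1.42, with 71 members under 1.5-fold, 22 from 1.5- to 2-fold and 7 above. The smallest ratio was 1.19. Gaps had a median of 0.16 (log2), and only 4 exceeded 0.5. At the border of the choice, members 98, 99 and 100 had gaps of 0.116, 0.116 and 0.115, and the 3 features just outside had 0.113, 0.111 and 0.110, so nothing separates the last members from the next features. The ratio and the gap ranked members differently. Member 86 had the second largest ratio, 14.6, yet a gap of only 0.13: it had 0.0379 to 0.106 CPM in unlesioned rats, 1.33 to 1.78 CPM in 4 lesioned rats, and 0.161 and 0.189 CPM in PD rat 3 and stimulated PD rat 2, where PD rat 3 gave 10 reads. Because member 86 was below the 0.5 CPM filter in every unlesioned rat, only its lesioned rats brought it into the test. That filter partly fixes its large ratio. Member 15 had a ratio of 5.07 and was narrowed by a single library. Control rat 1 had 7.71 CPM, the other unlesioned rats 1.33 to 1.94 CPM and the lesioned rats 9.46 to 22.0 CPM.

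Members came from the whole range of abundance. Their mean level had a median of 46.2 CPM, against 22.1 CPM for all features tested. By class, 9 members averaged under 5 CPM, 43 from 5 to 50, 42 from 50 to 1000 and 6 at 1000 or more, where these classes held 21.7%, 48.5%, 29.2% and 0.521% of the features tested. A gap between extremes favours features with little spread, and the members had little. The median SD within groups was 0.15 (log2) for members and 0.23 for all features tested, and 87 members were below the latter value.

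The 6 abundant members (numbers 8, 17, 18, 19, 48 and 62) averaged 1112 to 9755 CPM and were 1.34- to 1.57-fold higher in lesioned rats. Of the 78 features tested in that class, 13 had a gap above 0. Together these 6 took 3.19% ± 0.209 of all reads in control, 2.89% ± 0.0711 in stimulated control, 4.39% ± 0.301 in PD and 4.38% ± 0.656 in stimulated PD rats (SD, n = 3). The highest stimulated PD library was rat 3, at 5.13%. The other 94 members took 0.716% ± 0.0118, 0.680% ± 0.0687, 0.996% ± 0.102 and 0.992% ± 0.0138 in the same order. All 100 members made up 3.50% to 4.03% of reads in unlesioned and 4.91% to 6.12% in lesioned libraries, ranges that the choice of members keeps apart.

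**Figure D2:**
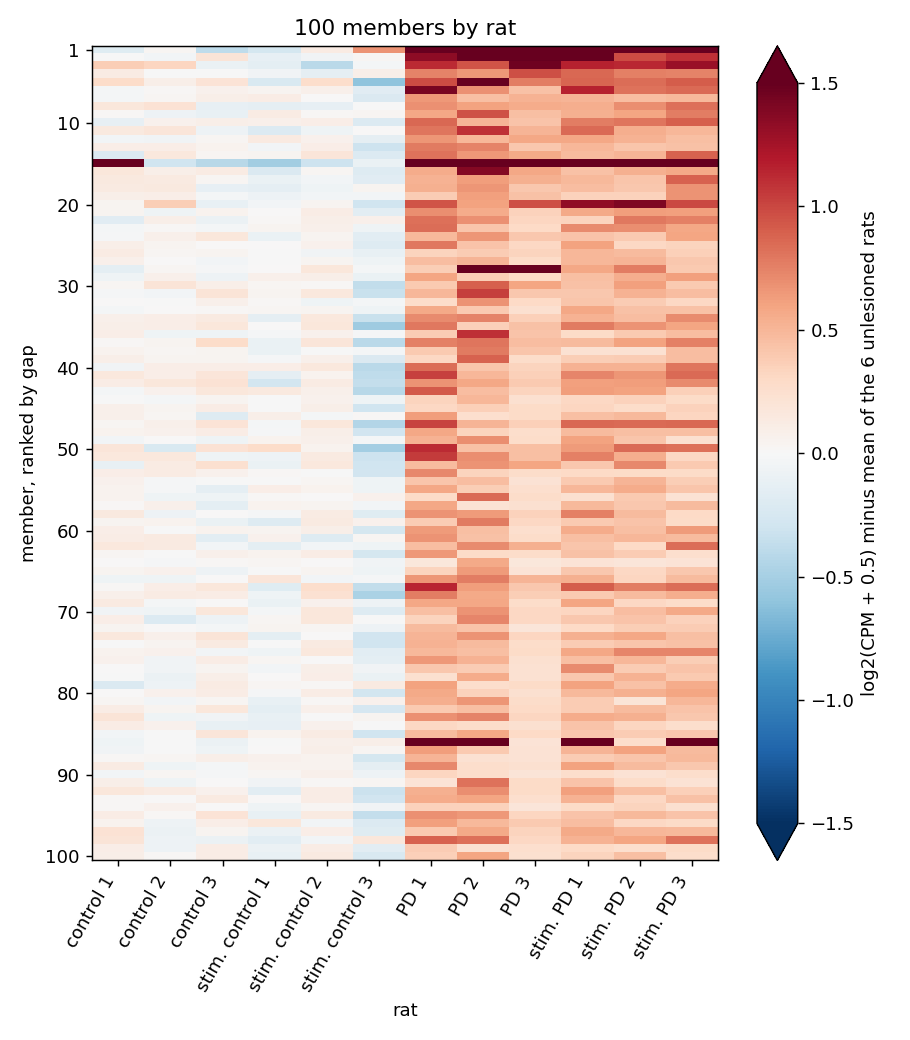
Each of the 100 members (rows, ranked by gap) in each of the 12 rats (columns), as log2(CPM + 0.5) minus the mean of the 6 unlesioned rats; colours saturate at 1.5 in either direction. Values are above 0 in all lesioned rats, palest in PD rat 3, and lowest among unlesioned rats in stimulated control rat 3 for most members.

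The lesioned edge of the gaps was set mostly by PD rat 3. It was the lowest lesioned rat for 62 members but for 10.6% of all features tested. The outer extremes, which do not enter the gap, were also unevenly shared. Stimulated control rat 3 was the lowest unlesioned rat for 62 members and for 19.1% of all features. The highest lesioned rat was PD rat 1 for 37 members and PD rat 2 for another 37, against 14.1% and 26.4% of all features. The upper edge of the unlesioned rats, the other edge of the gap, was more evenly shared. Stimulated control rat 2 set it for 27 members (8.62% of all features), control rat 1 for 24 (17.2%) and control rat 3 for 22 (16.6%). Stimulated control rat 3 set it for 5 members but for 37.4% of all features. With TMM factors PD rat 3 was again lowest for 62 members (15.5% of all features) and stimulated control rat 3 for 74 (28.5%). Stimulated PD rat 2 then set the lower lesioned edge for 24 members (20.6%) instead of 8 (9.48%). Centred on its own mean over all rats, the median member stood at 0.36 and 0.33 (log2) in PD rats 1 and 2 and at 0.078 in PD rat 3. In stimulated PD rats the values were 0.24, 0.23 and 0.23. Unlesioned rats stood between -0.26 and -0.17, except stimulated control rat 3 at -0.42. The median of all features tested moved the other way in this library, to 0.12, and was -0.036 in PD rat 3.

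PD rats therefore differed among themselves in the members more than stimulated PD rats did. The median SD of a member was 0.20 (log2) in PD, 0.086 in stimulated PD, 0.14 in stimulated control and 0.076 in control rats (n = 3 each). All features tested had the same order, at 0.29 in PD, 0.14 in stimulated PD, 0.16 in stimulated control and 0.13 in control rats, so a wide spread between PD rats was not particular to the members. Members that were highest in PD rat 2 had a median level of 32.7 CPM and those highest in PD rat 1 60.6 CPM. PD rat 2 exceeded the next lesioned rat by up to 1.76-fold and PD rat 1 by up to 1.31-fold in the members where each was highest.

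The difference between lesioned and unlesioned rats can be read in both pairs of groups, which share no library. The choice of members used both pairs, so these values are a description. The median difference over the members was 0.46 (log2) for PD minus control, with a range of 0.24 to 3.98. For stimulated PD minus stimulated control it was 0.52, with a range of 0.20 to 4.43. Over all features tested the medians were -0.11 and -0.12. The difference was larger in the stimulated pair for 69 members and in the unstimulated pair for 31, and all 6 abundant members were among the 69. Of all features tested, 55.1% had the higher signed difference in the stimulated pair. At a limma adjusted p under 0.05, 28 members were called higher in PD than in control rats, where 0.280% of the features tested were, and 32 in stimulated PD than in stimulated control rats, where 0.440% were. Nothing is read from these counts, because the same libraries chose the members.

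**Figure D3:**
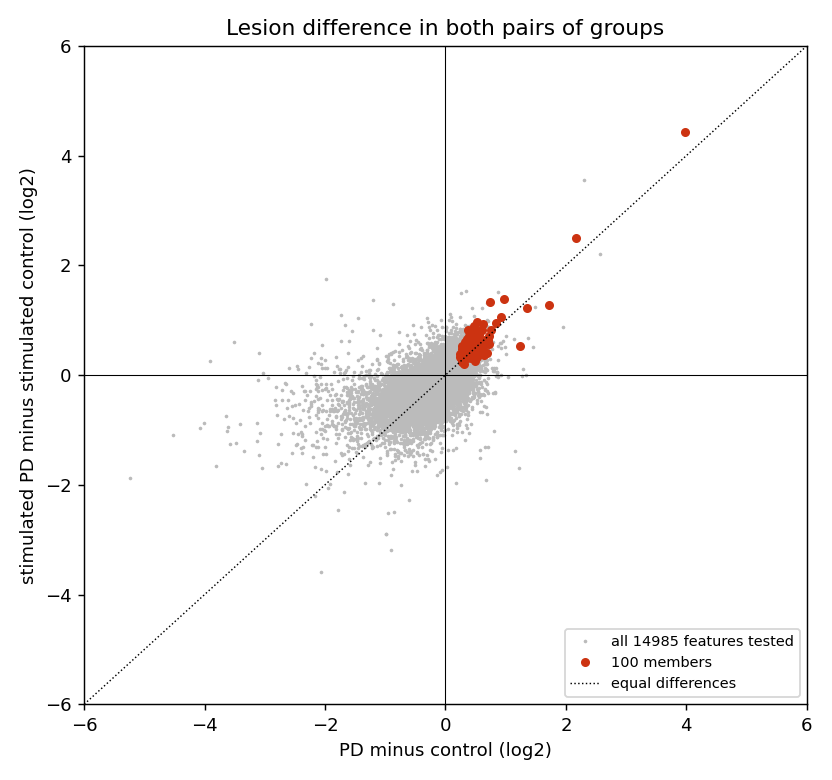
Log2 difference PD minus control (horizontal) and stimulated PD minus stimulated control (vertical) for all features tested (grey) and the 100 members (red); the dotted line marks equal differences. Members lie in the upper right corner by choice, with medians of 0.46 and 0.52, and member 1 is the point at 3.98 and 4.43.

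To place each rat in features that it had no part in choosing, the choice was repeated 12 times, each time over the other 11 rats. The sets so chosen are not the members: they held 51 of them without PD rat 3, 70 without PD rat 2 and up to 95 without another rat. Chosen features are already separated among the other 11 rats, unlike most features tested, so the shares of both are not like for like. A left-out lesioned rat lay above every unlesioned rat in 100, 79 and 88 of the 100 chosen features for PD rats 1, 2 and 3, where it did so in 21.3%, 24.9% and 14.8% of all features tested. For stimulated PD rats 1, 2 and 3 the counts were 94, 95 and 96, against 20.9%, 24.8% and 16.8%. A left-out unlesioned rat lay below every lesioned rat in 94, 97 and 90 of 100 for control rats and in 97 of 100 for each stimulated control rat, where the shares of all features were 7.91% to 13.3%. With TMM factors the counts were 86 to 100, where the shares of all features were 14.8% to 36.7%. A second placement used the midpoint between the median of the other lesioned and the median of the other unlesioned rats. It asked whether a left-out lesioned rat lay above this midpoint, or a left-out unlesioned rat below it. In the chosen features that is the rat's own side, because the other lesioned rats lie higher there. Over all features tested it is often not, since 66.1% had a lower estimate in lesioned rats. Those shares therefore give no measure of closeness to either side. PD rat 3 lay above the midpoint in only 38 of its 100 chosen features (41.1% of all features), so in most of them it lay nearer the unlesioned median. PD rat 2 lay above it in 67 of 100 (37.7% of all features). The other 10 rats lay on their own side in 85 to 96 of 100, and 33.9% to 55.4% of all features met the same condition. Features of 1 library are not independent and the 12 choices share most of their rats, so these counts describe the left-out rats and carry no test. PD rat 2 had the lowest count in the first placement, and why was not tested. It was the lowest lesioned rat for 40.4% of all features tested, the most of any rat, but for 10 members. It was also the highest lesioned rat for 26.4% of all features and for 37 members.

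**Figure D4:**
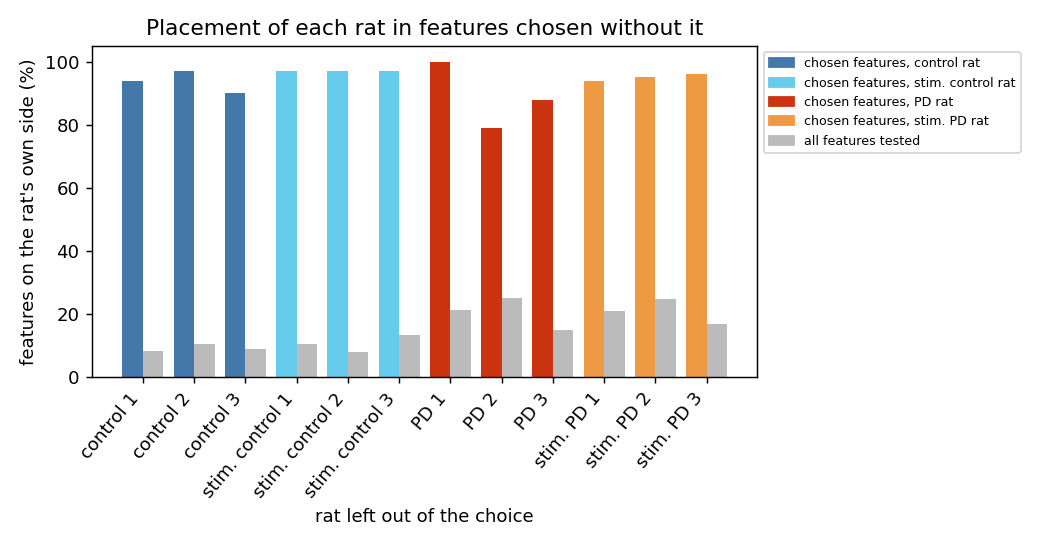
For each rat left out of the choice (horizontal axis), the percentage of the 100 features chosen over the other rats (coloured by group) and of all features tested (grey) in which the rat lay on its own side, above every unlesioned rat if lesioned or below every lesioned rat if unlesioned. Coloured bars run from 79 to 100 and grey bars from 7.91 to 24.9.

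Stimulation was compared within lesioned and within unlesioned rats, a contrast the choice did not use. It is not free of it, however: a feature whose PD and stimulated PD rats lie far apart seldom has a large gap, so small stimulation differences are partly fixed by the choice. By limma, 0 members had an adjusted p under 0.05 for stimulated PD minus PD, as for all features tested (0.00%), with a smallest adjusted p of 0.277 among members. At an unadjusted p under 0.05, 1 member was higher and 1 lower in stimulated PD rats, where 11.7% and 5.71% of the features tested were. edgeR called 0 members and 0.00% of features, and DESeq2 called 0 members and 6.06% of features. The median difference was -0.027 (log2) over members, with 59 below 0, and 0.080 over all features tested, of which 40.3% were below 0. Without PD rat 1, limma called 3 members (numbers 2, 23 and 28), 1 of them higher in stimulated PD rats, and 19.6% of the features tested. The median difference over members was 0.018 without PD rat 1 and 0.028 without PD rat 2. Without stimulated PD rat 3 limma called 0 members and 327 features, and the median over members was -0.020.

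Single members showed what differences there were. Member 1 was 0.80 higher in stimulated PD than in PD rats on the log2 scale (SE 0.45, limma adjusted p = 0.338), and the values of both groups overlapped. For member 2 the difference was -0.54 (SE 0.23, limma adjusted p = 0.277, unadjusted p = 0.0379), again with overlap. Member 28 had the most negative difference of all members, -0.61 (SE 0.29, limma adjusted p = 0.293), also with overlap. Its edgeR adjusted p was 0.176 and its DESeq2 adjusted p 0.0940. Stimulated PD rats lay above PD rats without overlap in 2 members, numbers 20 and 75, where 9.98% of features did. Member 20 had 0.999 to 1.43 CPM in PD and 1.46 to 2.10 CPM in stimulated PD rats (limma adjusted p = 0.309), and member 75 had 17.1 to 19.6 and 21.1 to 23.5 CPM (limma adjusted p = 0.281). Stimulated PD rats lay below PD rats without overlap in 0 members, where 4.26% of features did.

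In unlesioned rats the members were mostly a little lower with stimulation. The median of stimulated control minus control was -0.077 (log2) over members, and 76 of them had a negative difference, against a median of 0.034 over all features tested, 41.0% of which were negative. Without stimulated control rat 3, the library lowest for 62 members, the members' median was -0.018. By limma, 0 members passed at an adjusted p under 0.05 (0.00% of features), as by edgeR (0.00%) and DESeq2 (0.00%). At an unadjusted p under 0.05, 0 members were higher and 2 were lower, where 1.17% and 0.614% of features were. Stimulated controls lay below controls without overlap in 9 members and above them in 2, where 3.40% and 5.49% of features did. The lowest p belonged to member 42, at 95.6 ± 3.34 CPM in control and 76.3 ± 14.2 CPM in stimulated control rats (SD, n = 3; log2 difference -0.34, SE 0.13, limma adjusted p = 1.00).

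The difference between both stimulation effects (the interaction) was tested as well. By limma, 0 members had an adjusted p under 0.05 (0.00% of features), with 1 higher and 0 lower at an unadjusted p under 0.05, where 2.90% and 1.23% of features were. edgeR called 0 members and 0.00% of features, and DESeq2 0 members and 0.200%. The interaction had a median of 0.072 (log2) over members and 0.038 over all features tested. It was positive for 69 members and for 55.1% of all features tested.

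**Figure D5:**
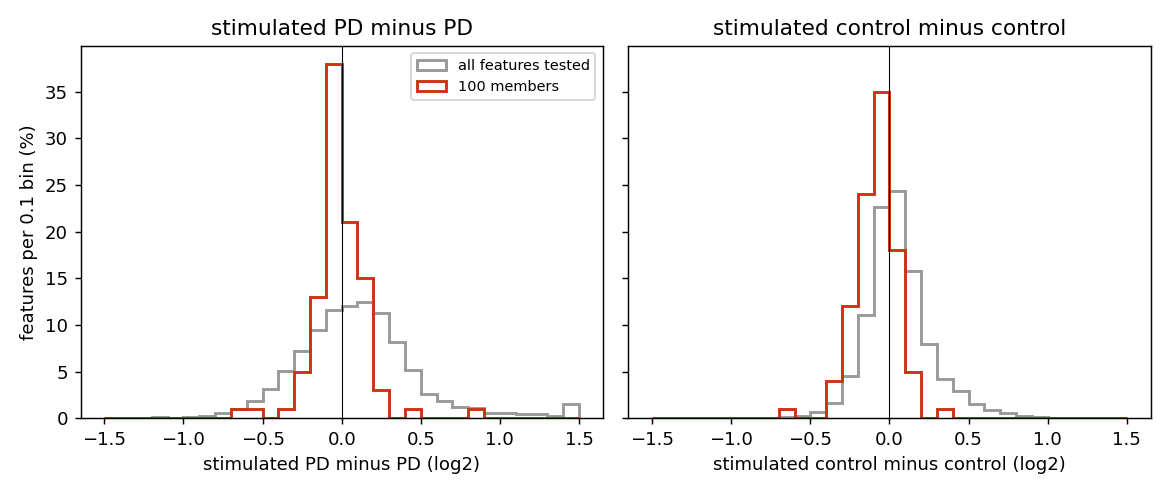
Share of features (%) per bin of 0.1 in the log2 difference with stimulation, in lesioned rats (left) and unlesioned rats (right), for the 100 members (red) and all features tested (grey); values beyond 1.5 are counted in the end bins. The members centre on -0.027 and -0.077, and all features on 0.080 and 0.034.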

How the data were processed

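Motor cortex poly(A) RNA of 12 rats was sequenced from stranded libraries, per the labels' protocols. The submitters' processing notes list STAR, featureCounts and Trim Galore with no version, and the build mRatBN7.2; annotation and strand setting: not given in the sources used here. All deposited values are CPM calculated by the authors, with 0 values of 0, and 0 columns were left unmatched to a sample. Every column is a multiple of 1 step, which gave whole reads for 100% of values (tolerance 0.001 read); features outside the table held 0.0190% to 0.130% of reads.

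Members and lists were chosen with earlier results of these data known. The naming rule took members by gap and, without symbols, printed 2 identifiers; members given by number for a large ratio, a lone library or no overlap were picked after their values were seen. The gene lists, marker lists and promoter motifs that had been prepared were not analysed here, because no identifier was named.

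Stimulation comparisons used limma 3.58.1 (R 4.3.3) on log2(CPM + 0.5), which understates changes of low features, with 4 group coefficients, a variance trend, all 14985 features and Benjamini-Hochberg adjustment. edgeR 4.0.16 and DESeq2 1.42.0 were run on the recovered reads. Alternatives were other pseudocounts, filters, scalings and fits, and each rat left out. Rats are numbered within each group as in the sample titles. For PD and stimulated PD rats the numbers in the deposited column codes partly differ, so pairs by title number do not examine a pairing by code. Of 18 same-number pairs across groups, 3 had deviations correlated over 0.1. A pair with different numbers, control rat 3 and stimulated control rat 2, reached 0.50. These correlations cannot exclude a pairing of rats, and the main fits used none.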

Additional observations from a re-analysis of the deposited data

How the results depend on the processing

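Of the 100 members, all kept a gap above 0 after rescaling by TMM, all after rescaling by median of ratios, and 96 when quantile-normalized; a pseudocount, the filter or leaving out a rat cannot turn a positive gap negative. How many stayed among the 100 largest gaps varied: 75 with TMM factors, 74 with median-of-ratios factors, 49 once quantile-normalized, and 51 (without PD rat 3) to 95 with 1 rat left out. Features with a gap above 0 numbered 920 (TMM), 968 (median of ratios) and 957 (quantile), against 372 as deposited, and 383 to 606 with 1 rat left out, which fewer rats allow by construction. The reverse arrangement fell from 1031 features to 547, 540 and 534 under the same 3 rescalings, so which direction held more features depended on scaling. The median PD minus control difference of the members was 0.61 (log2) with TMM and 0.61 with median-of-ratios factors, and the stimulated pair's was 0.63 with TMM factors. Members called for stimulated PD minus PD numbered 0 to 3 with 1 rat left out and 0 under all other alternatives run, the replicate block (0) and the fit of only the compared groups included; for the other stimulation comparisons 0 were called under every alternative. Leaving out the 6 abundant members gave medians of -0.030 for stimulated PD minus PD and -0.062 for stimulated control minus control. Their exclusion, TMM edges and TMM placement of left-out rats were chosen after seeing the data; leaving out mitochondrially encoded genes first was not run. The 17 members whose gap is under 2 counting errors had 10 to 1278 reads in their lowest lesioned rat. That error leaves out the pseudocount and is too large for scarce members, so depth may limit fewer than these 17.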
